A study of Mus musculus with 6 samples.

Results

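Synpo (Entrez 104027) and Synpo2 (Entrez 118449) encode the synaptopodins, proteins that hold actin filaments together with alpha-actinin. They were selected on the authors' measured exon usage: the deposited tables list a bin where the adjusted p of its usage against shCtrl was below 0.01, and every listed row of either gene is described here. An exon bin is an exon or part of one, numbered within its gene. A bin whose row name carries no number is called the unnumbered bin. It was taken to be the first bin of its gene by number, which the headers do not state. First by number need not mean nearest the start of the transcript. The shPtbp1 table holds 5 bins of these genes among 958 bins of 602 genes, 2 bins of Synpo and 3 of Synpo2, where 0.598% of 160290 tested bins were called. The shPnky table, with 249 bins of 175 genes, holds 0 bins of either, where 0.155% of 160603 tested bins were called. Both numbers of tested bins were inferred here from the listed p-values and adjusted p-values of the called bins.

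The data are 6 strand-specific, poly(A)-selected RNA libraries of mouse ventricular-subventricular zone cells, the postnatal neural stem cell niche. The cells came from C57/B6 animals at postnatal day 5 to 7 and were cultured with 5% fetal bovine serum, pituitary extract, and EGF and FGF at 20 ng/mL each. All cells carried a short hairpin RNA vector and were sorted for its fluorescent marker. The hairpin was directed against luciferase in shCtrl, against the long noncoding RNA Pnky in shPnky and against Ptbp1 in shPtbp1, with 2 libraries per group. Pnky and PTBP1 are named as partners in the study's title, and the design asked which exons change their usage when either is depleted. The labels do not say whether libraries numbered 1 and 2 came from separate animals or cultures, so every error and p-value given here reflects variation among these 6 libraries only, and that variation may be technical.

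Synaptopodin, the product of Synpo, is known from the foot processes of kidney podocytes and from the spine apparatus, a stack of smooth endoplasmic reticulum in dendritic spines of forebrain neurons. Synpo2 encodes synaptopodin-2, also called myopodin, an actin-bundling protein of muscle Z-discs and smooth muscle that binds filamin C as well as alpha-actinin. PTBP1 binds pyrimidine-rich RNA and represses many exons in cells that are not neurons, and its level falls as progenitors become neurons.

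Listed counts summed to between 3514859 and 3920040 reads per library in the shPtbp1 table. They are sums over called bins, and library sizes are not given. For the hairpin's target, bin 13 is the only listed Ptbp1 bin, and it went from 22334 and 19594 reads in shCtrl to 4967 and 4961. The bin is listed for its usage and the other Ptbp1 bins were not analysed here, so this is the count of 1 bin and no level of the gene. The table lists bins of 3 of 8 markers of neural stem cells and astrocytes (Aldoc, Gfap and Prom1). None of 6 neuronal, 5 oligodendrocyte-lineage, 3 microglial, or 6 endothelial, pericyte and smooth muscle markers had one, and the levels of markers without a listed bin were not analysed here. In such bulk RNA, fewer cells of a type and less RNA per cell cannot be told apart.

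In both genes, usage of the unnumbered bin was lower and usage of bin 1 higher when Ptbp1 was depleted. The shCtrl libraries had 4434 and 4095 reads in the unnumbered bin of Synpo, and the shPtbp1 libraries had 2531 and 2568. In bin 1 of Synpo there were 3500 and 3153 reads with the control hairpin and 6100 and 6333 with the Ptbp1 hairpin. The order of the bins by raw reads, not corrected for bin length, was thus reversed. The unnumbered bin had more reads in both control libraries, and bin 1 had more in both knockdown libraries.

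Expressed as a share of the reads in the 2 listed Synpo bins, the unnumbered bin went from 56.2% ± 0.43 (SD, n = 2) in shCtrl to 29.1% ± 0.34 (SD, n = 2) in shPtbp1. Bin 1 holds the complement and went from 43.8% ± 0.43 to 70.9% ± 0.34 (SD, n = 2). The shift of 27.1 percentage points is far larger than the spread between libraries of a group, which was under 1 point. With 2 libraries per group an exact permutation test cannot give a two-sided p below 0.333, and the shares belong to the contrast that chose the bins, so no test was made on them.

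**Figure D1:**
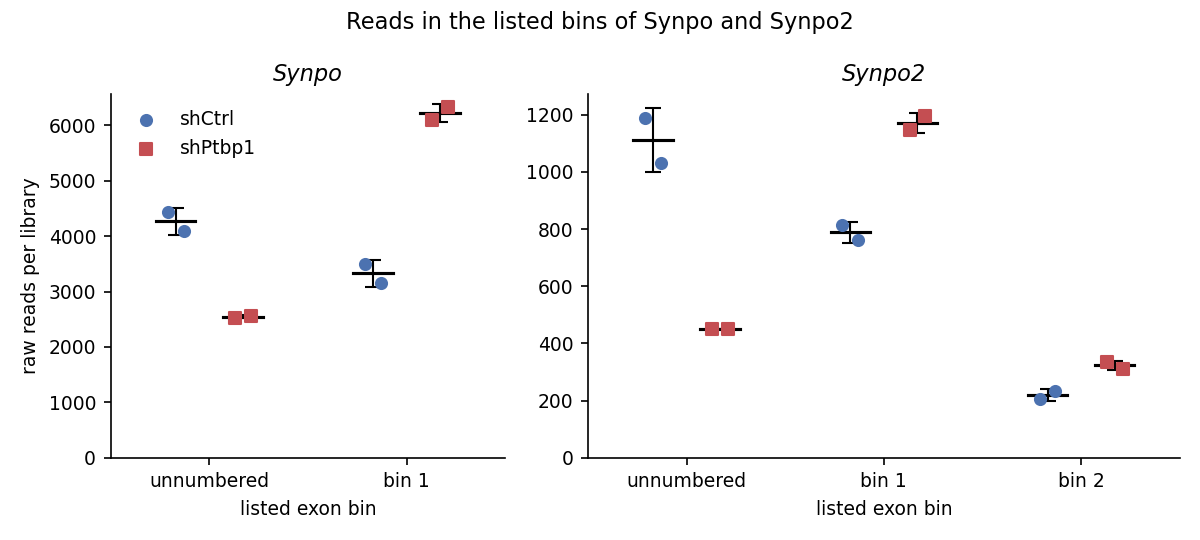
Raw reads per library (y axis, linear, a separate scale for each gene) in each listed bin of Synpo (left) and Synpo2 (right). Circles are shCtrl and squares shPtbp1 libraries, and bars give the mean and SD of 2 libraries. In each gene the unnumbered bin is lower and every numbered bin higher in both shPtbp1 libraries.

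Synpo2 was read less deeply and showed the same arrangement. Its unnumbered bin contained 1190 and 1032 control reads, against 451 and 452 in shPtbp1. Its bin 1 contained 813 and 763 control reads, against 1146 and 1196 in shPtbp1. As in Synpo, the control libraries had more reads in the unnumbered bin and the knockdown libraries more in bin 1. A further bin, bin 2, contained 205 and 235 control reads, against 335 and 311 in shPtbp1, and was the least read of the 3 in every library.

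Of the reads in the 3 listed Synpo2 bins, the unnumbered bin took 52.4% ± 2.16 in shCtrl and 23.2% ± 0.19 in shPtbp1 (SD, n = 2). Bin 1 took 37.2% ± 0.54 and 60.2% ± 1.23, and bin 2 took 10.4% ± 1.62 and 16.6% ± 1.04 (SD, n = 2). The shares of all 5 bins of both genes did not overlap between the groups. This was also true of 96.7% of the 516 listed bins in genes with at least 2 listed bins, so the separation alone does not set these genes apart in a table of called bins.

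**Figure D2:**
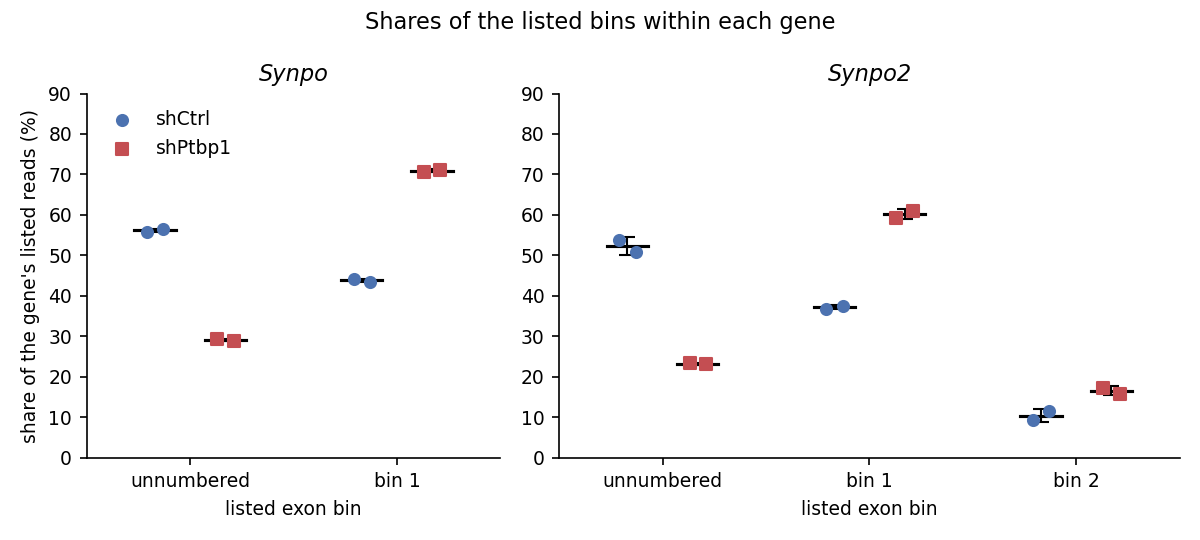
Share of the gene's listed reads (y axis, percent) in each listed bin of Synpo and Synpo2, by library (circles shCtrl, squares shPtbp1), with the mean and SD of 2 libraries. In Synpo the unnumbered bin drops from 56.2% to 29.1%, and in Synpo2 from 52.4% to 23.2%.

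The swap can be written as the ratio of bin 1 reads to unnumbered bin reads within a library, which does not depend on how libraries are scaled. In Synpo the ratio was 0.789 and 0.770 in shCtrl and 2.41 and 2.47 in shPtbp1. The shPtbp1 ratio was 3.13-fold higher, a log2 change of 1.64 (SE 0.024, n = 2 per group). In Synpo2 the ratio was 0.683 and 0.739 in shCtrl and 2.54 and 2.65 in shPtbp1, 3.65-fold higher, a log2 change of 1.87 (SE 0.064, n = 2 per group). In raw reads, the ratios of both genes were below 1 in shCtrl and above 2 in shPtbp1. The lengths of the bins are not known here, and reads were not corrected for length. The level of a ratio, and its likeness between the genes, therefore carries no meaning of its own, unlike its change.

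The log2 change of this ratio was larger in Synpo2 than in Synpo by 0.22 (SE 0.069), and the difference was not tested. Within Synpo2, bins 1 and 2 moved together. The ratio of bin 2 to bin 1 reads was 0.252 and 0.308 in shCtrl and 0.292 and 0.260 in shPtbp1, values that overlap between the groups, with a log2 change of -0.02 (SE 0.17, n = 2 per group). The ratio of bin 2 to the unnumbered bin had a log2 change of 1.85 (SE 0.21, n = 2 per group), close to that of bin 1. This value follows from the other ratios of Synpo2 and is no separate observation.

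The bin counts themselves changed by a log2 value of -0.80 (SE 0.043) for the unnumbered bin and 0.84 (SE 0.041) for bin 1 of Synpo, in the edgeR fit over all 958 listed bins with TMM scaling. In Synpo the loss and the gain were of similar size on this scale. In Synpo2 the unnumbered bin changed by -1.36 (SE 0.070), bin 1 by 0.51 (SE 0.064) and bin 2 by 0.49 (SE 0.11) on the same log2 count scale. The loss of the unnumbered Synpo2 bin was thus larger on the log2 scale than the gain of either numbered bin. The value for bin 2 rests in part on 1 control library: it was 0.32 without the first shCtrl library and 0.66 without the second.

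Summed over listed bins, Synpo had 7934 and 7248 control reads and 8631 and 8901 shPtbp1 reads, a log2 change of 0.19 (SE 0.035, edgeR fit on gene sums). Synpo2 had 2208 and 2030 control reads and 1932 and 1959 shPtbp1 reads, a log2 change of -0.14 (SE 0.046, edgeR fit on gene sums), or -0.075 with no scaling factor. Both sums changed far less than the single bins. They leave out bins that were not called, so they are not levels of the genes.

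The authors' deposited table gives Synpo a usage fold (log2) of -0.40 for the unnumbered bin and 0.29 for bin 1. For Synpo2 the authors' deposited table gives -0.67 for the unnumbered bin, 0.23 for bin 1 and 0.22 for bin 2. These folds are ratios of fitted usage values of the authors' model: the unnumbered Synpo bin, for example, has a fitted usage of 98.5 in shCtrl and 74.4 in shPtbp1 in the authors' deposited table. They are smaller than the changes in counts and do not state a fold in reads.

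Those calls chose the bins, so they are given as a description. Higher usage was called for 0.322% of all tested bins and lower usage for 0.268%, and the synaptopodins contribute 3 bins to the former and 2 to the latter. Both Synpo bins are among the 4 bins whose adjusted p is listed as 0 in the authors' deposited table, and by the test statistic bin 1 ranked 2 and the unnumbered bin 4 of 958. The unnumbered bin and bin 1 of Synpo2 ranked 35 and 39, with adjusted p of 2.9e-56 and 2.89e-52 in the authors' deposited table, and bin 2 ranked 582 with an adjusted p of 0.000467. By absolute listed fold, Synpo bin 1 and its unnumbered bin stood lower, at ranks 271 and 194, as did the unnumbered bin and bin 1 of Synpo2, at 107 and 340. Synpo2 bin 2 stood higher, at rank 344. The largest adjusted p in the table is 0.00995, and bins beyond the threshold were not analysed here.

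No Synpo or Synpo2 bin was called in shPnky in the authors' deposited table. Counts of these genes in the shPnky libraries were not analysed here, since the table gives counts only for called bins. Whether the 2 knockdowns differ in these genes was not tested.

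The unnumbered bin and bin 1 were both listed for 42 genes of the shPtbp1 table, which allows the same ratio to be set beside that of other genes. In 17 of the 41 genes with both folds listed, the unnumbered bin was lower and bin 1 higher, as in the synaptopodins. The opposite arrangement was found in 9, both bins were higher in 6 and both lower in 9. The median absolute log2 change of the ratio was 0.48, against 1.87 in Synpo2 and 1.64 in Synpo. By signed change these ranked 2 and 3 among the 42, after a gene for which the table gives no symbol (Entrez 320856, log2 change 2.82, mean counts of 65.8 and 18.5 reads) and before Hist1h2be (1.27) and Sdpr (1.19). Changes of like or larger size were found in the other direction, with -2.26 for the septin gene Sept6, -1.64 for E530001K10Rik and -1.52 for 1810024B03Rik. The ratios did not overlap between groups in 81.0% of the 42 genes. This set of genes was formed after the values of the synaptopodins were known, and it is a description.

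**Figure D3:**
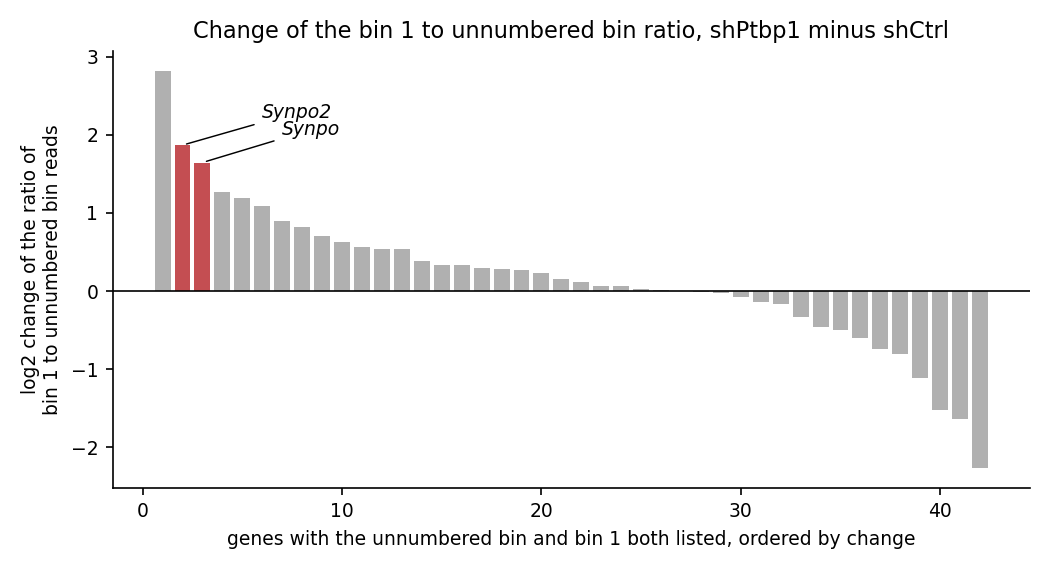
Log2 change (shPtbp1 minus shCtrl) of the ratio of bin 1 to unnumbered bin reads (y axis) in the 42 genes with both bins listed, in order of the change (x axis, rank). Synpo2 (1.87) and Synpo (1.64) are drawn in red at ranks 2 and 3, and the other genes in grey.

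The tables carry no coordinates, so the bins cannot be placed on a transcript. Both synaptopodin genes lie on the minus strand in the GENCODE M21 annotation (GRCm38, a later build than the mm9 of the submitters' processing notes). The unnumbered bin was listed for 46.4% of 267 minus-strand genes and for 13.2% of 318 plus-strand genes of the shPtbp1 table. Among genes with at least 3 listed bins, the most-read bin had the lowest number in 19 of 27 minus-strand genes and in 6 of 35 plus-strand genes. It had the highest number in 2 of 27 and 21 of 35. The direction in which bins are numbered is not given in the sources used here. Of the 17 genes with a lower unnumbered bin and a higher bin 1, 15 are on the minus strand. Minus-strand genes also prevail among all genes with a listed unnumbered bin, with 124 against 42 on the plus strand. That is a wider set than the genes with both bins listed, from which the 17 come. Whether strand goes with this arrangement was not tested, and the 15 are not read as a feature of it.

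The same annotation gives each gene alternative coding ends. Synpo has 12 annotated transcripts, of which 6 are coding with a stop codon, and these use 2 stop positions. The 3 that end at the downstream stop encode 901 to 1100 residues and the 3 that end at the upstream stop 690 to 929 residues. Synpo2 has 7 annotated transcripts, 6 of them coding with a stop codon at 3 positions. Its transcripts with a complete start encode 1198 to 1257 residues when they end at the most downstream stop and 702 to 1087 when they end at the most upstream one. In both genes, 0 of the 3 transcripts that end at the most downstream stop carry the next upstream stop in an exon. Which of these ends a bin belongs to was not analysed here.

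By the profile of TMM-scaled counts over the 4 libraries of the shPtbp1 table, the leading bins (the bin of a gene with the smallest adjusted p) most like Synpo bin 1 were those of Gpr173, Ss18, Aplp2, Wnk1 and Aldoc, at distances of 0.077, 0.092, 0.11, 0.11 and 0.14 on the log2 scale among 253 candidates. The closest, the unnumbered bin of the receptor gene Gpr173, had 1157 and 1092 control reads and 1974 and 2062 shPtbp1 reads. The likeness is in counts and not in usage: the authors' deposited table gives this bin a log2 fold of 0.056, against 0.29 for Synpo bin 1, and the ratio of bin 1 to unnumbered bin reads changed by -0.74 (log2) in Gpr173. The leading bin of Synpo2, its unnumbered bin, was most like bin 5 of the tropomyosin gene Tpm3 (distance 0.046 among 297 candidates), with 3516 and 3030 control reads and 1335 and 1286 shPtbp1 reads. Dtnb (dystrobrevin beta), the adhesion gene Ncam1, the membrane-shaping gene Bin1 and Pafah2 followed, at distances of 0.052, 0.11, 0.12 and 0.14. With 4 libraries in 2 groups this likeness mostly reflects the size of the change.

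Genes related to the synaptopodins were taken from 4 lists and Synpo2l, the third member of the family, 74 genes in all. The lists hold alpha-actinins and filamins (6 genes) and other direct or reported partners (15). They also hold genes of Z-discs and stress fibres (29) and of dendritic spine actin and scaffolds (23). Genes of these wider lists share a structure with the synaptopodins and need not act with them. For short, all are called partner genes here. In shPtbp1, 15 of the 74 had a called bin. The number of genes the authors tested is not known here, and the share of all tested genes with a called bin cannot be set beside this count or the counts of the 4 single lists, so nothing is read from how many genes of a list were called. The leading bin was higher in 10 and lower in 5, against 283 higher and 307 lower over all 602 genes of the table. The median absolute fold of the leading bins was 0.50 in the authors' deposited table for the 15 genes and 0.14 for all 602. These medians were not matched for read depth. Of the 15 leading bins, only those of Tpm1 and Tpm3 had a mean count above 946, the median over all listed shPtbp1 bins. The larger median fold is therefore not read as a stronger change in partner genes, and a comparison at like depth was not made. Synpo2l had no listed bin. In shPnky, 1 of the 74 was called, Tpm1.

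Among alpha-actinins and filamins, the direct actin-crosslinking partners, 2 of the 6 on the list were called, both lower. Bin 13 of Actn4, an alpha-actinin of non-muscle cells, had 861 and 808 control reads and 398 and 370 shPtbp1 reads, and its listed fold was -0.38 (log2, the authors' deposited table). Bin 30 of Flnc, which encodes filamin C, had 216 and 106 control reads and 47 and 49 shPtbp1 reads (log2 fold -0.96 in the authors' deposited table), and its control libraries lie far apart.

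Of 15 other partners, 3 were called and each leading bin was higher. Ppp3ca, a catalytic subunit of the phosphatase calcineurin, which acts on synaptopodin in podocytes, had 737 and 665 control reads in bin 12 and 1158 and 1199 shPtbp1 reads. The scaffold gene Magi1 (bin 1, log2 fold 0.38) and the actin regulator gene Enah (bin 8, 0.32) followed in the authors' deposited table. The Enah bin was higher in usage only: its reads overlapped between groups, with 835 and 696 in shCtrl and 769 and 800 in shPtbp1. Magi1 is also 1 of the 17 genes with a lower unnumbered bin and a higher bin 1.

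Of 29 Z-disc and stress-fibre genes, 5 were called, with Pdlim5 (log2 fold 0.76) and the paxillin gene Pxn (0.55) higher and Tpm1 (-0.98), Tpm3 (-0.50) and Pdlim7 (-1.20) lower in the authors' deposited table. Of 23 genes of dendritic spine actin and scaffolds, 5 were called and each leading bin was higher. They were the kinase subunit gene Camk2b (bin 6, log2 fold 1.05), the adaptor gene Sorbs2 (bin 13, 0.97), Syne1 (0.49), the cortactin gene Cttn (0.34) and the spectrin gene Sptan1 (0.30) in the authors' deposited table. Bin 6 of Camk2b had 75 and 68 control reads and 261 and 264 shPtbp1 reads. Leading bins do not speak for whole genes: in Pdlim7, 6 of 8 listed bins were lower and 2 higher.

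**Figure D4:**
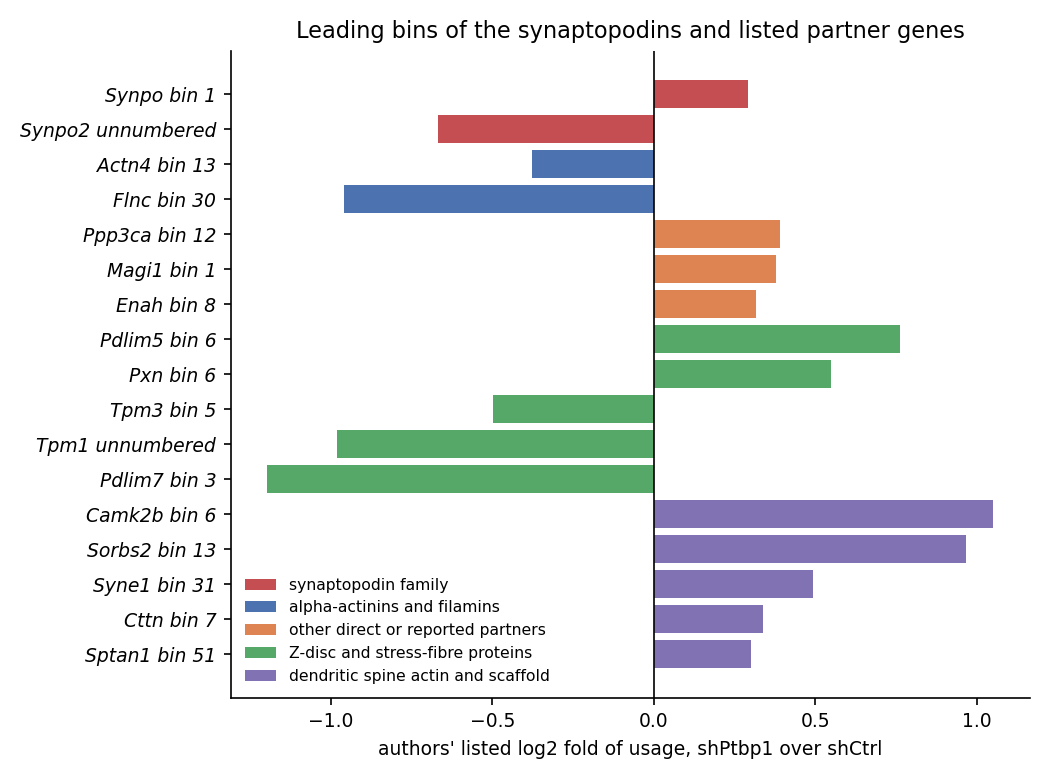
Authors' listed log2 fold of usage (x axis, shPtbp1 over shCtrl) of the leading bin of Synpo, Synpo2 and the 15 called partner genes, coloured by list. Positive values are higher usage in shPtbp1. The leading bins of all 5 called spine genes are positive, and those of the Z-disc and stress-fibre genes lie on both sides. The lists were written with earlier results known, and a difference between them was not tested.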

How the data were processed

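RNA from 6 libraries (shCtrl, shPnky and shPtbp1, 2 each, grouped by title) was analysed from 2 tables of the authors' DEXSeq exon usage test. Per the file headers, the deposited columns are raw counts per bin and library, p-values and adjusted p-values, a log2 fold, and scores of the authors' model (mean count, dispersion, statistic and fitted usage). Only bins below an adjusted p of 0.01 are in the tables. The submitters' processing notes name mm9, TopHat2 2.0.10 and Cuffdiff 2.1.1 without their roles. Neither the read counter nor the bin annotation nor the DEXSeq version is given in the sources used here.

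Bin numbers came from row names, and both Entrez identifiers matched their symbols in a RefSeq GRCm38 table. Strand and coding ends came from GENCODE M21. The listed fold matched the log2 ratio of fitted usage within 0.001 in 100% of bins with a fold.

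Shares and ratios were computed per library. Count changes came from edgeR 4.0.16 (R 4.3.3; glmQLFit, TMM, no filter) over all bins or gene sums of the shPtbp1 table, with DESeq2 1.42.0 as an alternative. These fits see called bins only, the median log2 count change of the table was 0.02, and no p is given for the 2 genes because the same contrast chose them. On counts simulated for 958 shPtbp1 bins, the count test found 192 of 200 bins changed by a log2 fold of 1 and called 2 others. The simulation gave every bin the same dispersion and left most bins unchanged. The real bins were all called and differ in dispersion, so this result does not speak for the synaptopodin estimates. Libraries of a group were not copies of each other, with a chi-square per degree of freedom of 2.42 to 7.63 over bins.

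Members, lists and tests were chosen with earlier results of these data known. Named genes are every listed synaptopodin bin, called genes of the lists by leading bin, and the 5 genes with the smallest Euclidean distance between centred log2 profiles (prior count 0.5, mean count of at least 50, same sign of fold). A few list genes are not reported here, and the list counts leave them out. Genes named from the ratio comparison were chosen after their values were seen. No sequence is shown, because bins have no coordinates. Alternatives were other scalings, a mean count of at least 50, stricter thresholds, leaving out each library and a replicate block.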

Additional observations from a re-analysis of the deposited data

How the results depend on the processing

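All 143 alternative values of the 19 synaptopodin measures kept their sign, but not all of them were free to change. The bins were chosen for a change called on these same libraries, which favours kept signs. The kept signs are therefore no independent support for the change. The replicate block leaves shares and ratios as they are, and every synaptopodin bin passes the count minimum. Scaling factors largely cancel in the changes within a gene, and the shares of the 2 Synpo bins are complements. With no scaling factor, which moved the median log2 count change of all bins by 0.11, the log2 count change was -0.69 and 0.95 for the unnumbered bin and bin 1 of Synpo and -1.25 and 0.62 for those of Synpo2, and the summed reads changed by 0.26 (Synpo) and -0.075 (Synpo2). Without 1 library each, the share of the unnumbered bin changed by -27.4 to -26.8 percentage points in Synpo and by -30.7 to -27.6 in Synpo2, and the log2 change of the ratio by 1.63 to 1.66 and 1.81 to 1.92. Deviations of libraries numbered alike were nearly uncorrelated between shCtrl and shPtbp1 (0.073 over 888 bins). With 2 libraries per group this cannot show whether the numbers mark a pairing by animal or culture. With the replicate block the log2 count changes were -0.80 and 0.84 in Synpo and -1.36, 0.51 and 0.49 in Synpo2.

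At an absolute log2 fold of at least 1, 0 synaptopodin bins, 37 higher and 7 lower shPtbp1 bins and 2 higher and 3 lower shPnky bins were left. Partner genes then numbered 2 higher and 2 lower in shPtbp1, and 0 in shPnky. At an adjusted p under 0.001, lower shPtbp1 bins numbered 271 (429 before), and shPnky bins 73 higher and 82 lower (119 and 130 before), while all 5 synaptopodin bins stayed. With the largest fold as leading bin, the shPnky partner gene, Tpm1, turned from lower to higher (1 higher, 0 lower). The calls could not be refitted without a library, because the tables hold called bins. Depth limits Synpo2 bin 2 most, with 205 to 335 reads per library.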
